A study of Mus musculus with 20 samples.

Results

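The genes described here are 10 markers of astrocytes and radial glia, picked by name from the 45705 genes of the deposited table. They are Slc1a3, Slc1a2, Aldoc, Gja1, Gjb6, Aqp4, Gfap, Glul, Aldh1l1 and Hopx. They were followed in 5 populations of cells sorted by FACS from the periventricular zone of Swiss Webster pups at postnatal day 5, with 4 libraries of each population, 1 from each of 4 batches. NSCs (neural stem cells) carried CD133 and LeX (CD15) and lacked CD140a and NG2. The 4 progenitor populations, BNAP/GRP1, GRP2/MP3, GRP3 and PFMP, were separated by the same 4 antigens, and BNAP, GRP and PFMP stand for neuron-astrocyte, glial-restricted and growth factor responsive multipotential progenitors. No transgene or treatment is named for any group, the pups of a litter were pooled with both sexes together, and a sort gate can hold more than 1 cell type. Libraries carry the number of their batch, and NSC 4 comes from batch 4. Values are the authors' RPKM, in which reads are divided by gene length and by the library's total. The poly(A) RNA was amplified first and the gene lengths used are not given, so levels of different genes compare only roughly.

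Radial glia are the stem cells of the embryonic brain, and the stem cells that remain beside the lateral ventricle after birth descend from them and keep many features of astrocytes. Astrocytes take up glutamate, turn it into glutamine, couple to each other through gap junctions and move water at their endfeet. Ependymal cells, the ciliated lining of the ventricle, also come from radial glia, carry CD133, and share Aqp4, Gja1, Vim and S100b with astrocytes. Slc1a3 and Slc1a2 encode the glial glutamate transporters GLAST and GLT-1, and Glul encodes glutamine synthetase. Aldoc is the brain aldolase of glycolysis and Aldh1l1 an enzyme of folate metabolism used to mark astrocytes. Gja1 and Gjb6 encode the connexins Cx43 and Cx30, Aqp4 the water channel of the endfeet and Gfap the intermediate filament of astrocytes. Hopx encodes a small homeodomain protein that does not bind DNA and marks subsets of radial glia and adult stem cells.

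The genes lie on different chromosomes for the most part. In GENCODE vM21 on GRCm38, Hopx is at chr5:77086988-77115121 on the minus strand and Gja1 at chr10:56377330-56402513 on the plus strand. Slc1a3 is at chr15:8634124-8710764 (minus), Slc1a2 at chr2:102658659-102790784 (plus), Glul at chr1:153899944-153909723 (plus) and Aldh1l1 at chr6:90486427-90600203 (plus). Aldoc at chr11:78322968-78327781 (plus) and Gfap at chr11:102887336-102900912 (minus) share a chromosome, and Gjb6 is at chr14:57123303-57133611 (minus). All 10 genes are protein-coding. Hopx is overlapped by the antisense gene Hopxos, Slc1a2 by the antisense gene Gm13872 and Aldh1l1 by the antisense gene Gm15756. An antisense gene also overlaps Aqp4, and the protein-coding Teddm2 overlaps Glul on the opposite strand. The strand setting of the counting is not given in the sources used here, so reads of such partners cannot be told apart.

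Promoter windows of 250 bases upstream of a start site were taken from RefSeq on GRCm38.p6 and were found for 9 of the 10 genes, as 11 windows. The 2 Hopx windows and the Gja1 window are shown because these genes carry the differences between NSCs and progenitors given below. The capitals in the Hopx windows mark the letters GTTGCC or their reverse complement, the core letters bound by RFX factors. It was 1 of 6 motifs searched on both strands, a list drawn up after the values were known.
Hopx, chr5:77115124-77115373, minus strand: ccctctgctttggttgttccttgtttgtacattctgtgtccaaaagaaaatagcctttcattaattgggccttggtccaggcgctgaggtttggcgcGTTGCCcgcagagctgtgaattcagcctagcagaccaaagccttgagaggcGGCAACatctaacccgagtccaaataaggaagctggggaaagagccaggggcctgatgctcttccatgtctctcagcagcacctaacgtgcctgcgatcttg
Hopx, second start site, chr5:77095268-77095517, minus strand: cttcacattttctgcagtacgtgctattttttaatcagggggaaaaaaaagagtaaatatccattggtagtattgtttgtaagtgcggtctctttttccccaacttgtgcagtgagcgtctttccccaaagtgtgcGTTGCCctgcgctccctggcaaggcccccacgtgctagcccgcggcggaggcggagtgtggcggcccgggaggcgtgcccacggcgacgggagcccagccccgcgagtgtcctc
Gja1, chr10:56377050-56377299, plus strand: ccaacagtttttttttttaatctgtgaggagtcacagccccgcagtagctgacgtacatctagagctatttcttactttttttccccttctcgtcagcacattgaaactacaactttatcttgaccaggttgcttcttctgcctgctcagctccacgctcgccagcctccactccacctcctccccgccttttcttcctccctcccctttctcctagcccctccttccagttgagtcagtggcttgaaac

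The first Hopx window held GTTGCC 2 times, at positions -153 (forward) and -102 (reverse strand) counted from the start site. The second held it 1 time, at -114. Of all 32851 windows of the same length, 10.4% held these letters, so finding them is a description of the windows and no more. The Gja1 window held none of the 6 motifs. In the other genes, a Gjb6 window had GTTGCC, an Aldoc window the NFI letters TTGGCA (in 12.3% of all windows), and windows of Aldoc and Slc1a3 the STAT letters TTCNNNGAA (in 7.02%). Slc1a3 also had the TATA letters TATAAA on the reverse strand (in 12.4%). The SOX letters ACAATG (in 10.7%) and the full NFI palindrome (in 0.0365%) were in none of the windows, and the windows of Glul, Slc1a2, Aldh1l1 and Gfap held no match.

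Several libraries stood apart before any comparison. With BNAP/GRP1 1 set to 1, sequencing depth read from low values was lowest at 0.0395 for BNAP/GRP1 4 and highest at 1.41 for BNAP/GRP1 3. A single read in a gene of 1 kb was worth 0.228 to 8.14 RPKM. In all 5 libraries of batch 3 the 5 erythrocyte markers summed to 228440 to 252653 RPKM (at most 26514 elsewhere) and the 10 lung epithelium markers to 984 to 1115 (at most 101 elsewhere), while the 10 astroglial genes summed to between 77.2 and 117. Microglia markers summed to 2538 RPKM or more in batch 3 and in the batch 1 and 2 libraries of BNAP/GRP1 and GRP2/MP3, and OPC markers to 1370 (median) in PFMP and 1982 (median) in GRP3 against 26.3 in NSC. In NSC, all 10 ependymal markers were above 1 RPKM in every library, and they summed to 4185, 16949, 1684 and 8154 RPKM in batches 1 to 4. In the progenitors they summed to between 3.77 and 77.6 RPKM, save for 562 in GRP2/MP3 4. In bulk samples, fewer cells of a type and less RNA per cell cannot be told apart.

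The label was checked on the genes themselves. All 10 astroglial genes had 1 RPKM or more in 9 of the 20 libraries, among them NSC 1, NSC 2 and NSC 4. This cutoff says little about the label where most genes had high values. BNAP/GRP1 4, which is among the 9, had a median of 8.30 RPKM over all 45705 genes. The medians of GRP3 4, NSC 4 and GRP2/MP3 4, also among the 9, were 2.02, 1.61 and 0.977. Every other library had a median of 0.237 or less. Aqp4 (5.84 RPKM) and Aldh1l1 (6.98) were below the median of BNAP/GRP1 4, and the rest of the 10 were above it. In batch 3, Gjb6 was listed at 0 in 5 libraries and Gfap in 4, and Slc1a2 stayed below 1 RPKM in all 5. Summed RPKM of the 10 genes was 621, 650, 117 and 2589 in the NSC libraries of batches 1 to 4. The highest sum, 3533 RPKM, was that of PFMP 4, followed by NSC 4 and then by GRP2/MP3 4 with 1862, so the 3 highest sums were in batch 4. The plot of every gene in every library shows this as a dark block in batch 3 and bright cells in batch 4.

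**Figure D1:**
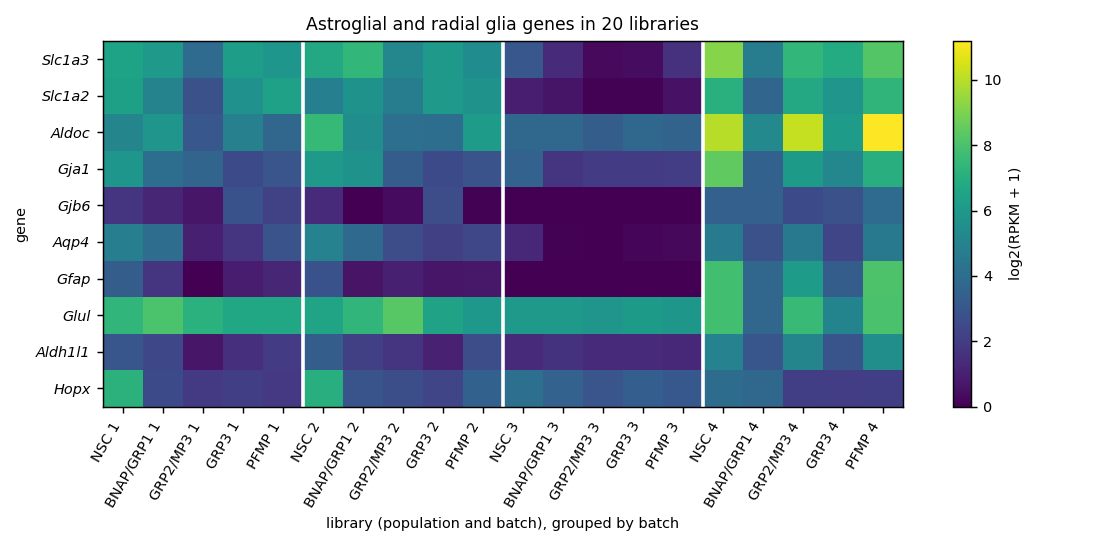
Level of the 10 genes (rows) in the 20 libraries (columns, grouped by batch with white lines between batches), with colour giving log2(RPKM + 1). The batch 3 libraries are dark for Slc1a3, Slc1a2, Gjb6, Aqp4 and Gfap, Hopx is bright in NSC 1 and NSC 2, and Aldoc is brightest in PFMP 4 at 2344 RPKM.

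Each progenitor was compared with NSC to ask how the stem cell and astrocyte genes changed between the NSC gate and the progenitor gates. Hopx was lower in GRP2/MP3, GRP3 and PFMP than in NSC, and without the batch number in the model no other of the 10 genes passed the test. With it, Gja1 and Aqp4 passed in GRP3 too, as given below. Differences are given on the log2(RPKM + 1) scale with their SE, and adjusted p is from limma over the 27614 genes tested, with a threshold of 0.05. The number of the 10 genes called lower was 0 in BNAP/GRP1, where 0.76% of all genes tested were called lower. In each of the other three it was 1, Hopx, beside 1.12% (GRP2/MP3), 1.04% (GRP3) and 1.14% (PFMP) of all genes. None was called higher (0.0% of all genes in BNAP/GRP1 and GRP2/MP3, 0.0109% in GRP3 and 0.00362% in PFMP). All 10 genes passed the filter on low values.

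With the batch number in the model as a replicate block, 3 genes were called lower in GRP3 (Hopx, Gja1 and Aqp4), beside 2.33% of all genes. The counts in BNAP/GRP1, GRP2/MP3 and PFMP were 0, 1 and 1, beside 2.02%, 2.91% and 2.61%, and none was higher (0.275% of all genes for GRP3, 0.185% for PFMP, 0.174% for GRP2/MP3 and 0.0652% for BNAP/GRP1). With library weights from arrayWeights, the counts called lower were 3 in GRP3 (8.56% of all genes) and 1 each in BNAP/GRP1 (6.97%), PFMP (4.9%) and GRP2/MP3 (5.76%), and 2 genes were higher in NSC than in the mean of the progenitors (8.09%). The median difference of the 10 genes from NSC was -1.36 in BNAP/GRP1, -1.67 in GRP3, -1.55 in GRP2/MP3 and -0.71 in PFMP. Over all genes tested it was 0.38, 0.05, -0.08 and -0.20 in the same order, and with quantile normalization the 0.38 of BNAP/GRP1 became 0.09 and the -0.20 of PFMP 0.07. These 4 comparisons share the NSC libraries.

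Hopx, the homeodomain gene, had 147, 133, 16.1 and 14.8 RPKM in the NSC libraries of batches 1 to 4. It had 4.80, 6.46, 10.5 and 12.2 RPKM in BNAP/GRP1, 3.16, 4.08, 9.02 and 3.14 in GRP3, 2.76, 5.40, 6.81 and 3.26 in GRP2/MP3, and 2.66, 10.3, 7.48 and 3.24 in PFMP. NSC 1 and NSC 2 were far above all other libraries, and the lowest NSC library was above the highest of the 16 progenitor libraries. Hopx was the 1 gene of the 10 without overlap, which held for 0.587% of all genes tested. Against each progenitor alone, such genes were 1.2% (BNAP/GRP1), 2.93% (GRP2/MP3), 2.34% (GRP3) and 3.51% (PFMP) of all genes.

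Mean Hopx in NSC was 77.7 ± 72.1 RPKM (SD, n = 4). It was 8.49 ± 3.45 for BNAP/GRP1, 5.91 ± 3.61 in PFMP, 4.85 ± 2.81 in GRP3 and 4.56 ± 1.89 in GRP2/MP3. On the log2 scale it fell by 3.18 in GRP2/MP3 (SE 0.70, limma adjusted p = 0.023), by 3.14 in GRP3 (adjusted p = 0.0269) and by 2.96 in PFMP (adjusted p = 0.0389). The difference of BNAP/GRP1 was -2.42, with an adjusted p of 0.181. The neighbours among the progenitors did not differ past the threshold, with differences from -0.76 to 0.22 in the 6 direct contrasts of limma and adjusted p of 0.76 or more. With the replicate block, limma adjusted p of Hopx was 0.00716 in GRP2/MP3, 0.00892 in GRP3, 0.0139 in PFMP and 0.0644 in BNAP/GRP1. Without the block, the calls were lost when single libraries were left out, in fits that also held fewer libraries. With 1 library left out, the difference ran from -3.71 to -2.64 in GRP2/MP3, -3.68 to -2.60 in GRP3 and -3.49 to -2.42 in PFMP. Without NSC 1, the adjusted p was 0.153 in GRP3, 0.136 in GRP2/MP3 and 0.22 in PFMP, and without NSC 2 it was 0.18, 0.156 and 0.252 in the same order. The call was also lost in GRP2/MP3 without GRP2/MP3 1, 2 or 4, in GRP3 without GRP3 1, 2 or 4, and in PFMP without any of its own libraries. With only the compared populations in the fit, adjusted p was 0.184 in GRP3, 0.133 in GRP2/MP3 and 0.196 in PFMP, and with quantile normalization it was 0.0546 in GRP2/MP3 and 0.114 in PFMP. Without NSC 3, Hopx was called in BNAP/GRP1 too (adjusted p = 0.0465).

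The size of the Hopx difference varied with the batch. GRP2/MP3 was below NSC by 5.30, 4.39, 1.13 and 1.89 on the log2 scale in batches 1 to 4, and BNAP/GRP1 by 4.67, 4.17, 0.58 and 0.25. In batch 4 the gap between NSC and BNAP/GRP1 rested on few reads, since lengths from GENCODE put Hopx at about 11 reads in NSC 4 and about 2.28 in BNAP/GRP1 4. Reads were few in the populations with a call too. In batches 1 to 4 they were about 4.54, 5.95, 26.3 and 4.45 in GRP2/MP3 and 4.24, 3.71, 38.8 and 4.07 in GRP3. PFMP had about 1.47, 9.96, 39.4 and 15.1, and NSC about 109, 229, 55.8 and 11. The ependymal marker sum was 1684 RPKM or more in all 4 NSC libraries, and both it and Hopx were higher in NSC than in the progenitors. In batches 1 to 4 the NSC sum was 4185, 16949, 1684 and 8154 RPKM, in libraries that differ in depth and batch. With batch means taken out, the genes most like Hopx were Hdc (r = 0.976), Ccno (0.968), a gene for making multiple cilia, and Mdh1b (0.964). Among the progenitor libraries, GRP2/MP3 4 had the highest sum, 562 RPKM, with Hopx at 3.26 RPKM. The part of ependymal cells in the differences of Hopx, and of Gja1 and Aqp4 below, was not tested.

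Gja1, the main astrocyte connexin, had 58.1, 63.9, 10.6 and 353 RPKM in NSC. The values were 15.5, 51.8, 2.25 and 9.98 in BNAP/GRP1, 4.69, 4.76, 3.02 and 34.8 in GRP3, 11.4, 8.72, 2.87 and 68.2 in GRP2/MP3, and 6.63, 6.28, 3.1 and 130 in PFMP. NSC had the highest Gja1 in each batch, yet the groups overlapped, because batch 3 was low and batch 4 high in nearly every population. Its differences from NSC were -2.25 in BNAP/GRP1, -2.92 in GRP3, -2.23 in GRP2/MP3 and -2.26 in PFMP, each with an SE of 1.18, and limma's adjusted p was 0.595 or more. In the blocked fit its adjusted p was 0.0247 in GRP3 (lower in 4 of 4 batches), against 0.12 for BNAP/GRP1, 0.102 for GRP2/MP3 and 0.103 for PFMP. Without batch 3 and with the block, the Gja1 difference in GRP3 was larger, at -3.39, and its adjusted p was 0.0506 with 5 fewer libraries.

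Aqp4, the endfoot water channel, had 26.8, 30.2, 1.37 and 23.1 RPKM in NSC and 2.34, 3.29, 0.105 and 4.10 in GRP3. In BNAP/GRP1 it had 15, 13.2, 0.0324 and 5.84, in GRP2/MP3 0.968, 5.2, 0.00836 and 22.2, and in PFMP 6.29, 4.16, 0.169 and 22. In batch 4, GRP2/MP3 and PFMP came close to NSC, and in batches 1 to 3 every progenitor was farther below it. Differences from NSC were -1.24, -1.86, -2.32 and -1.41 in BNAP/GRP1, GRP2/MP3, GRP3 and PFMP, with limma adjusted p of 0.866 or more. With the replicate block it was called in GRP3 (adjusted p = 0.0467) and in no other progenitor, where adjusted p was 0.125 or more. Without batch 3 and with the block, the Aqp4 difference in GRP3 grew to -2.72, with an adjusted p of 0.0796. Aqp4 lies on chromosome 18.

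NSC was the highest of the 5 populations in each of the 4 batches for Hopx, Gja1 and Aqp4, which was true of 3.28% of all genes tested. For Slc1a3 it was the highest in batches 1, 3 and 4, and for Gfap and Aldh1l1 in batches 1 and 2. Slc1a2 and Aldoc were highest in NSC in 1 batch each, and Glul and Gjb6 in none. Gjb6 was at 0 in all 5 populations in batch 3. Counted by batch, NSC led for 6, 6, 6 and 4 of the 10 genes, where the 6 of batch 3 counts that tie. In batch 4, PFMP led for the other 6, which were Slc1a2, Aldoc, Gjb6, Gfap, Glul and Aldh1l1.

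**Figure D2:**
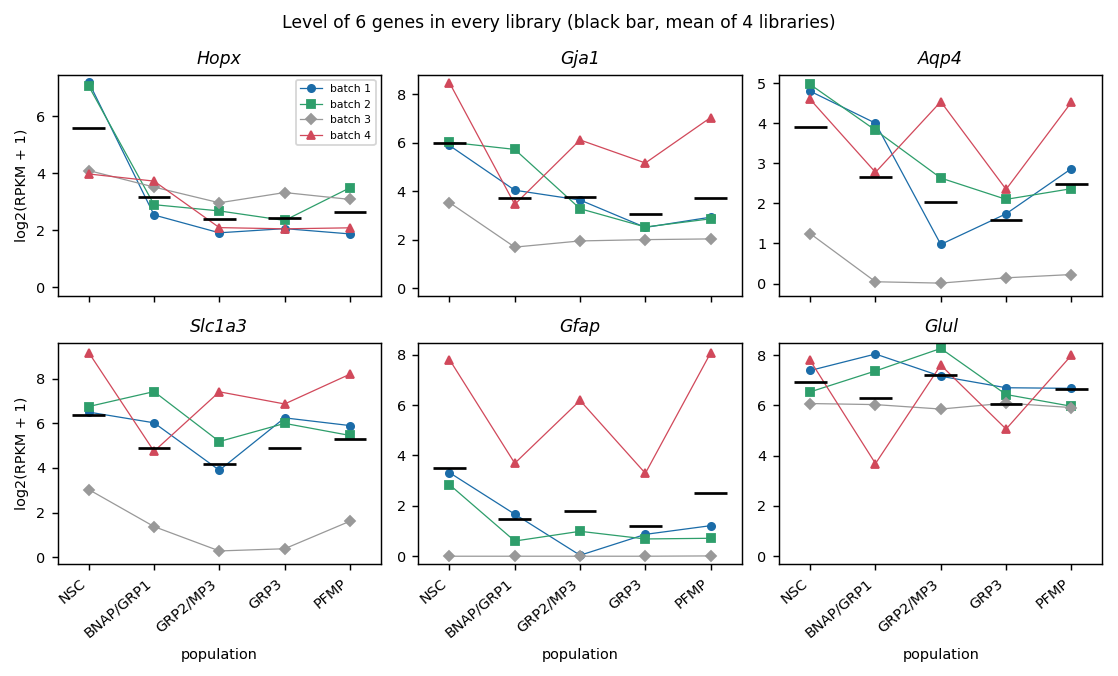
log2(RPKM + 1) of 6 genes (y axis) in the 5 populations (x axis), with a symbol for each library, lines joining the libraries of 1 batch, and a black bar at the mean of 4 libraries. In the panels of Hopx, Gja1 and Aqp4 the NSC point is the highest of every line, the Gfap points of batch 3 lie at or near 0, and the Glul lines cross.

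Slc1a3, which encodes GLAST, had 90.0, 107, 7.18 and 578 RPKM in NSC. It had 64.2, 171, 1.58 and 25.9 RPKM in BNAP/GRP1, 75.0, 63.0, 0.296 and 116 in GRP3, 13.9, 35.4, 0.211 and 170 in GRP2/MP3, and 58.8, 43.0, 2.05 and 295 in PFMP. The groups overlapped widely, and only in batch 2 was a progenitor, BNAP/GRP1, above NSC. Its differences from NSC were -1.48 (BNAP/GRP1), -2.17 (GRP2/MP3), -1.49 (GRP3) and -1.07 (PFMP), with an SE of 1.73 and limma adjusted p of 0.866 or more. With the replicate block the SE fell to 0.68, and the lowest adjusted p was 0.105, in GRP2/MP3, which was below NSC in 4 of 4 batches.

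Slc1a2, which encodes GLT-1, was 81.3, 27.9, 0.935 and 135 RPKM in NSC and 83.1, 53.0, 0.441 and 158 in PFMP. GRP3 had 49.5, 63.1, 0.0435 and 56.6, BNAP/GRP1 31.4, 53.6, 0.572 and 11.5, and GRP2/MP3 5.76, 26.2, 0.0569 and 106. PFMP was above NSC in 3 of 4 batches and GRP2/MP3 below it in all 4. In mean log2 level the order was PFMP, NSC, GRP3, BNAP/GRP1 and GRP2/MP3, and no neighbours in it differed past the threshold. Differences from NSC ran from -1.23 in GRP2/MP3 to 0.18 in PFMP (SE 1.72, limma adjusted p = 0.873 or more, 0.453 or more with the block).

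Glul, glutamine synthetase, was abundant in every population. It had 167, 91.9, 66.4 and 220 RPKM in NSC, 263, 164, 64.4 and 11.9 in BNAP/GRP1, 103, 85.4, 67.2 and 32.3 in GRP3, 142, 307, 56.9 and 194 in GRP2/MP3, and 101, 61.5, 59.3 and 253 in PFMP. It was the highest of the 10 genes in 12 of 20 libraries. The difference of GRP2/MP3 from NSC was 0.27 and that of GRP3 -0.88 (SE 0.81, limma adjusted p = 1 for both). BNAP/GRP1 stood at -0.66, but at 0.20 without BNAP/GRP1 4, where the value rested on about 4.84 reads.

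Aldoc, the brain aldolase, had 33.5, 180, 12.3 and 1003 RPKM in NSC and 12, 71.3, 10.7 and 2344 in PFMP. It had 7.21, 16, 8.79 and 1189 RPKM in GRP2/MP3, 55.8, 44.5, 12.4 and 37.9 in BNAP/GRP1, and 28.1, 15.8, 12.6 and 72.6 in GRP3. Batch 4 held the extremes: NSC, GRP2/MP3 and PFMP stood at 1003 RPKM or more there, and BNAP/GRP1 and GRP3 at 72.6 or less. The differences from NSC were -1.49 (BNAP/GRP1), -1.42 (GRP2/MP3), -1.86 (GRP3) and -0.42 (PFMP), each with an SE of 1.62 and limma adjusted p of 0.866 or more.

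Aldh1l1, the folate enzyme, followed the same course at lower levels, with 6.95, 8.79, 1.64 and 29.9 RPKM in NSC, and 33.4 in GRP2/MP3 4 and 45.6 in PFMP 4. In the other progenitor libraries it lay between 0.596 and 6.98 RPKM. GRP3 was below NSC in 4 of 4 batches, with a difference of -1.44 (SE 0.97, limma adjusted p = 1, or 0.264 with the block). The others were at -0.87 (BNAP/GRP1), -0.93 (GRP2/MP3) and -0.31 (PFMP).

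Gfap, the astrocyte filament, was 8.97, 6.17, 0 and 223 RPKM in NSC. It was 2.18, 0.519, 0 and 11.9 in BNAP/GRP1, 0.825, 0.609, 0 and 8.80 in GRP3, 0.0269, 0.986, 0 and 71.7 in GRP2/MP3, and 1.32, 0.639, 0.0084 and 268 in PFMP. In batches 1 and 2 the NSC value was above every progenitor, in batch 3 Gfap was at or near 0 in all 5 populations, and in batch 4 PFMP was above NSC. Differences from NSC were -2.0 (BNAP/GRP1), -1.69 (GRP2/MP3), -2.28 (GRP3) and -0.99 (PFMP), each with an SE of 1.72, and none passed the test with or without the block. In batches 1 and 2 alone, Gfap was called lower in GRP2/MP3 (-2.57, limma adjusted p = 0.0254) and GRP3 (-2.30, adjusted p = 0.0426), beside 4.37% and 3.36% of all genes. These calls set 2 libraries against 2, with progenitor values near the floor. Gfap had about 0.123 and 3.02 reads in GRP2/MP3 1 and 2 and 3.08 and 1.54 in GRP3 1 and 2, against 18.5 and 29.5 in NSC.

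Gjb6, the second astrocyte connexin, was the least abundant of the 10 in NSC, with 2.18, 1.58, 0 and 9.91 RPKM. Its order differed from that of Gja1. GRP3 had 6.10, 5.22, 0 and 5.78 and was above NSC in batches 1 and 2, while BNAP/GRP1 had 1.27, 0, 0 and 9.80, GRP2/MP3 0.607, 0.25, 0 and 4.65, and PFMP 3.6, 0.0354, 0 and 13.9. The difference of GRP3 from NSC was 0.44 (SE 1.00, limma adjusted p = 1), and those of the others lay between -0.75 and -0.09, where the -0.09 of PFMP turned to 0.13 with quantile normalization. A value in BNAP/GRP1 4 rested on about 3.22 reads.

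**Figure D3:**
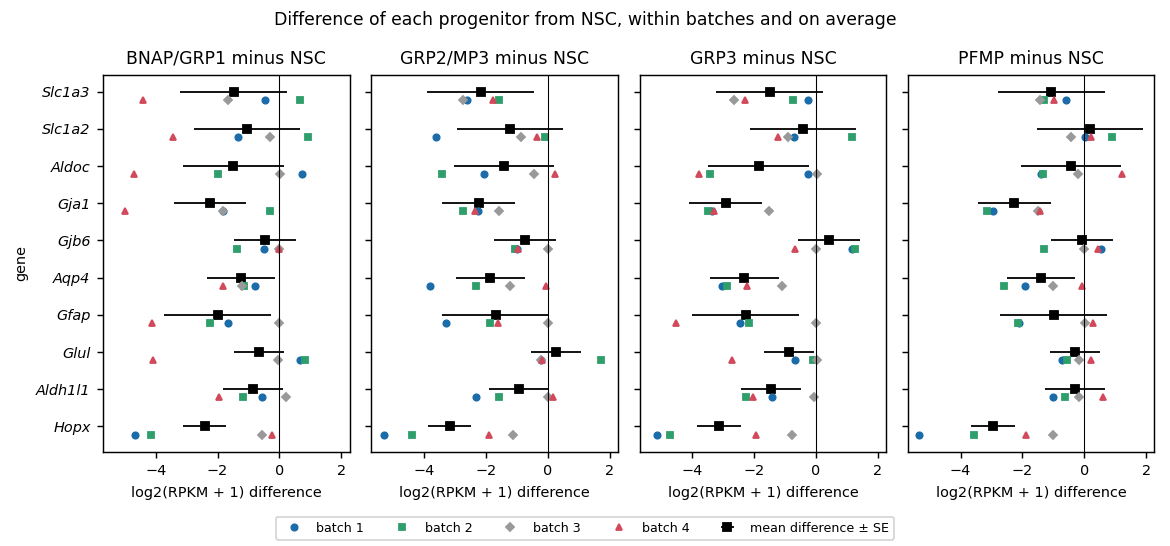
Difference of each progenitor from NSC on the log2(RPKM + 1) scale (x axis) for the 10 genes (y axis), with coloured symbols for the difference within each batch and black squares for the mean difference ± SE of limma. The Hopx squares lie between -2.42 and -3.18, all symbols of Hopx, Gja1 and Aqp4 are left of 0, and the symbols of Glul and Gjb6 fall on both sides.

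NSC was also set against the mean of the 4 progenitors, which gives each population the same weight. All 10 differences were above 0, and 1 gene, Hopx, was called higher, beside 1.96% of all genes tested. Hopx was 2.92 above the progenitors (SE 0.56, limma adjusted p = 0.0037), Gja1 2.42 (SE 0.93, adjusted p = 0.381), Gfap 1.74, Aqp4 1.71 and Slc1a3 1.55. Aldoc stood at 1.30, Aldh1l1 at 0.89, Slc1a2 at 0.63, Glul at 0.39 and Gjb6 at 0.22. Single NSC libraries moved most of these values. Without NSC 4 the difference was 0.30 for Gfap, 0.62 for Slc1a3, 0.17 for Aldoc, 0.29 for Aldh1l1 and 1.58 for Gja1. Without NSC 3 it was 2.90 for Gfap, 2.67 for Slc1a3, 2.24 for Aldoc, 1.47 for Aldh1l1 and 2.59 for Aqp4. With the replicate block 3 genes were called, beside 4.14% of all genes: Hopx (adjusted p = 0.00125), Gja1 (adjusted p = 0.0118) and Aqp4 (adjusted p = 0.0488).

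These calls were run again without the libraries that stood apart. Without batch 3 in any population, Hopx was 3.61 above the progenitors (limma adjusted p = 0.00289) and stayed called in GRP2/MP3, GRP3 and PFMP. With batch 3 left out and the block in the model, Gja1 stayed called (2.68, adjusted p = 0.0396) and Aqp4 did not (1.89, adjusted p = 0.115). Without BNAP/GRP1 4, Hopx stood at 2.97 (adjusted p = 0.00277), and the number of genes called lower in BNAP/GRP1 was again 0 (1.98% of all genes). Without NSC 1 the adjusted p of Hopx was 0.0529, and without NSC 2 it was 0.0588. The median of the 10 genes was 1.43, against -0.07 over all genes tested.

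Compared with each other in 6 direct contrasts, the progenitors gave no call for any of the 10 genes, and 0.0% of all genes were called in each contrast, with the replicate block as without. At an unadjusted p under 0.05, none of the 60 values passed without the block, and 1 did with it, Gjb6 in GRP3 against GRP2/MP3 (1.18, SE 0.54, adjusted p = 0.716). The largest differences were 1.43 for Aldoc (PFMP above GRP3), 1.41 for Slc1a2 (PFMP above GRP2/MP3) and 1.29 for Gfap (PFMP above GRP3), each smaller than its SE without the block. With the block the SEs were 0.98, 0.68 and 0.75, smaller than the differences, and adjusted p was 0.75 or more. With library weights by arrayWeights, 2 values were called: Gjb6 was higher in GRP3 than in BNAP/GRP1 (1.72, adjusted p = 0.0298) and than in GRP2/MP3 (2.12, adjusted p = 0.0287), where 9.2% and 6.57% of all genes were called higher.

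The spread of each gene over the 20 libraries was split into shares of population, batch and the rest. Hopx was the 1 gene with more spread between populations (67.0%) than between batches (5.28%). For Gja1 the shares were 28.3% and 51.6%, and for Aqp4 21.7% and 61.5%. Between batches lay 81.1% of the spread of Slc1a3, 83.6% of Slc1a2, 76.7% of Gfap, 75.2% of Gjb6, 66.4% of Aldh1l1 and 62.6% of Aldoc, and their population shares were between 5.11% and 13.9%. Glul had most of its spread in neither, with 67.5% in the rest.

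**Figure D4:**
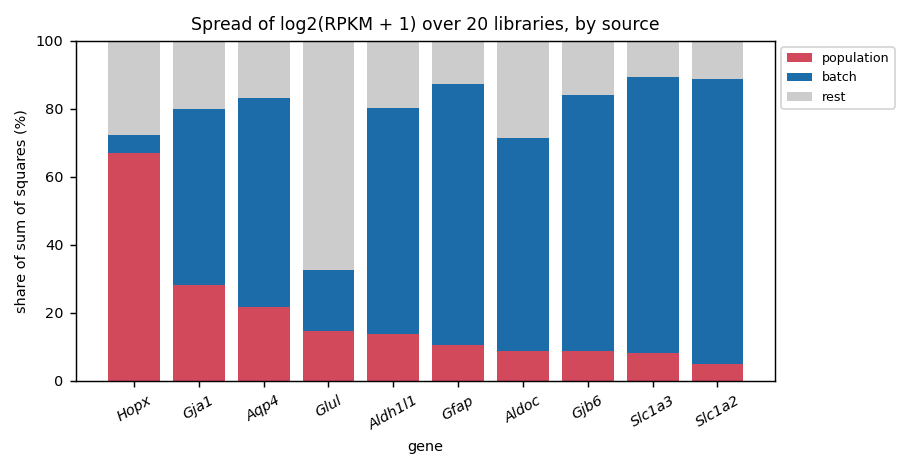
Share of the sum of squares of log2(RPKM + 1) over 20 libraries (y axis, percent) that lay between populations, between batches and in the rest, for each of the 10 genes (x axis). Hopx stands first with 67.0% between populations, and Slc1a2 last with 5.11%.

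Most of the 10 genes varied together across libraries, and Hopx did so least. Pearson's r of log2(RPKM + 1) over the 20 libraries, which share batches and populations, is given as a description. The closest pairs were Aldoc with Aldh1l1 (r = 0.966), Slc1a3 with Slc1a2 (r = 0.958) and Gfap with Aldh1l1 (r = 0.958). The median r of a gene with the other 9 was 0.81 for Gja1 and 0.751 for Aqp4, and 0.0537 for Hopx. After the mean of each batch was taken out, Aldoc with Aldh1l1 stood at 0.92 and Gfap with Aldh1l1 at 0.89, and the medians were 0.67 for Gja1, 0.283 for Hopx and 0.0381 for Gjb6.

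Among 12219 other genes with a mean of at least 5 RPKM, those most like Hopx were Hdc (r = 0.945), the histidine decarboxylase gene, Ribc1 (0.920) and Ankrd66 (0.920). With batch means taken out they were Hdc (0.976), Ccno (0.968), which encodes a cyclin needed for making multiple cilia, and Mdh1b (0.964). Slc1a2 was most like Cldn10 (0.975), Ssbp3 and Tspan7, and Slc1a3 most like Nfia (0.959), the NFI factor that starts astrocyte formation, Mmd2 and Pantr1. Aqp4 was closest to Crym (0.939), Slc4a4 (0.928), a bicarbonate transporter of astrocytes, and Cbs (0.898). Gfap was nearest to Emp2 (0.969), Ncs1 and Arhgap5, Aldh1l1 to Ncs1 (0.947), Emp2 and Car2, and Aldoc to Ncs1 (0.944), Ppp1r1a and Gna11. For Gja1 they were Pttg1 (0.928), Clybl and Igsf3, for Gjb6 Fgfrl1 (0.914), Pls1 and Lcorl, and for Glul Cd81 (0.877), Calm2 and Ier2. These values are over 20 libraries that differ in depth and batch, with no test.

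Other genes of the same pathways were read from 7 lists, in the same contrast of NSC against the mean of the progenitors. Of 25 other astrocyte genes, 1 was called higher and 0 lower (1.96% and 0.0217% of all genes). With the block 6 were higher (4.14% of all genes), and the list median was 0.69. The called gene was Slc25a18, a mitochondrial glutamate carrier, with 26.8, 37.4, 3.23 and 63.7 RPKM in NSC (3.19, SE 0.82, limma adjusted p = 0.0451). In the progenitors it stayed at 4.25 RPKM or less, apart from 11.5 in GRP2/MP3 4 and 44.9 in PFMP 4. Mt3, a metallothionein, stood at 4.42 (adjusted p = 0.105, with the block 0.000712) and Clu, which encodes clusterin, at 3.34 (adjusted p = 0.104, with the block 0.00169). The lowest of the list was Gpr37l1 at -0.62 (adjusted p = 1).

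Of 20 radial glia and stem cell genes, 0 were called by limma (5 of 20 had an unadjusted p under 0.05). With the block 6 were higher (4.14% of all genes), and the list median was 0.83. Dbi stood at 2.80 (block adjusted p = 0.0184), Vim, the filament of radial glia, at 2.38 (block adjusted p = 0.00449) and Pdpn at 2.10 (block adjusted p = 0.0213), while Lifr was lowest at -0.15. Vim had 245, 580, 911 and 313 RPKM in NSC and 935 to 994 RPKM in the progenitors of batch 3, against 22.8 to 121 in those of the other batches. Among 10 transcription factors listed as astrogliogenic (median 0.78) 0 were called by limma and 2 had an unadjusted p under 0.05. With the block 2 were higher and 1 lower (4.14% and 0.225% of all genes). The list was set by name, and not every factor in it need promote astrocyte formation. Sox9, needed for the gliogenic switch, stood at 2.43 (block adjusted p = 0.00139), Lhx2 at 1.72 (0.0244), Pou3f2 at 1.09 (0.289) and Stat3 at -1.42 (0.0232).

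Of 12 other genes for glutamate and glutamine, 1 was called higher, Slc38a1, a glutamine transporter (1.99, SE 0.47, limma adjusted p = 0.0261). It had 101, 65.4, 15.8 and 82.3 RPKM in NSC and 6.68 to 23.3 in the progenitors. Slc38a5 stood at 2.17 (block adjusted p = 0.0261), Slc38a3 at 1.13 and Slc1a1, the neuronal glutamate transporter EAAC1, at -1.68 (block adjusted p = 0.0815), with a list median of 0.02. Of 9 tested genes for endfoot water and potassium handling (of 11 listed), 1 was called higher (list median 0.77), Mlc1, a membrane protein of astrocyte endfeet, at 4.08 (limma adjusted p = 0.0238). Mlc1 had 486, 266, 22.6 and 107 RPKM in NSC and at most 37.8 in any progenitor. Hepacam stood at 1.53 and Aqp9 at 0.18.

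Of 9 other connexins and pannexins 0 were called by limma with or without the block and 0 had an unadjusted p under 0.05, with a median of -0.06, Gja4 at 0.20, Gjc1 at 0.12 and Gjc3 at -1.17. Of 8 aldolase and folate enzymes 0 were called either way and 0 had an unadjusted p under 0.05, with a median of -0.08, Aldoa at 1.01, Mthfd1 at 0.95, Mthfd1l at 0.75 and Aldh1l2 at -1.31. The ependymal markers were unlike all of these. All 10 of 10 were called higher in NSC, with a median of 7.09. Of the genes of the sort antigens, Prom1 (CD133) stood at 1.86 (block adjusted p = 0.0371), Pdgfra (CD140a) at -3.07 (0.0423), Cspg4 (NG2) at -2.26 (0.14), Fut9 at -0.97 and Fut4 at -0.42, where Fut9 and Fut4 encode enzymes that make the LeX sugar.

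**Figure D5:**
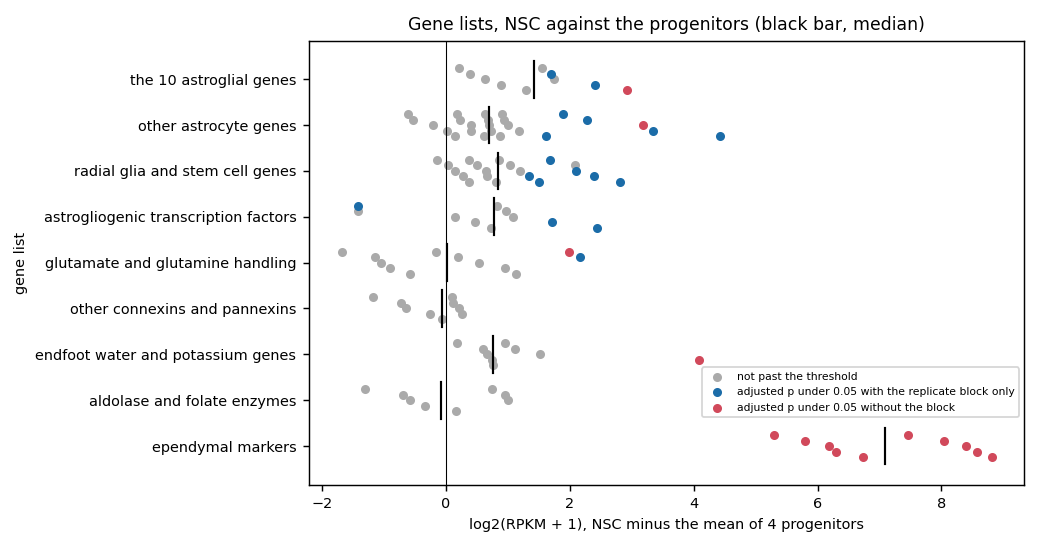
NSC minus the mean of 4 progenitors on the log2(RPKM + 1) scale (x axis) for the genes of each list (y axis), with a point for each gene tested, coloured by whether limma called it without the block, with the block only, or not at all, and a black bar at the median. The median is 1.43 for the 10 astroglial genes, 0.69 for other astrocyte genes and 7.09 for ependymal markers, of which every point is past the threshold.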

How the data were processed

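Poly(A) RNA of sorted cells was amplified and sequenced as 20 libraries, 4 per population. Per the labels and the study's methods, the authors trimmed reads with cutadapt (3.4), checked them with FastQC (0.11.9), aligned them to GRCm38 with STAR (2.6.1), counted with Salmon (1.9.0) and used DESeq2 (1.26.0). The deposited values are RPKM from the authors, with 45705 genes. The read totals and gene lengths behind them are not given in the sources used here, so depth is known only relative to another library, and numbers of reads are estimates from GENCODE exon lengths. No columns were left out but 26 unnamed empty ones.

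The 27614 genes that reached 1 RPKM in 4 or more of the 20 libraries were kept, log2(RPKM + 1) was taken, which understates the change of low genes, and all 20 libraries were fitted in limma 3.58.1 (R 4.3.3) with a trended prior and Benjamini-Hochberg adjustment over all genes, after tests on simulated data. A batch term was left out of the first model, since the study's methods name none, and added as the replicate block. The labels give the batch of each library, and same-batch libraries deviated together from their group means (median r of 0.337, 0.262, 0.769 and 0.581 in batches 1 to 4, against -0.204 between batches), so the numbers pair the samples. P-values measure the spread between libraries of the 4 batches, and without the block that spread also holds the differences between batches. Pups of a litter were pooled, but the sources used here do not say whether a batch is 1 litter.

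The alternatives changed the pseudocount, filter, scaling, prior, library weights or the libraries used. The 10 genes, the gene lists (other astrocyte, radial glia, transcription factor, glutamate, connexin, endfoot, aldolase and folate, sort antigen and 10 cell type marker lists) and the tests were chosen with earlier results of these data known, and the promoter motifs after the values were seen. Genes named outside the 10 were the 3 with the highest difference of each list, the lowest, and those called, and the 3 most alike by Pearson's r among genes with a mean of at least 5 RPKM. Some genes that this rule names are not reported here.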

Additional observations from a re-analysis of the deposited data

Results flagged for a closer look

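Each of the 10 genes was screened in each population for a library far from the others by Dixon's gap criterion, on RPKM without the log. Chance meets it in about 1 in 20 independent groups of normally distributed values. That rate is no reference here, since RPKM are skewed to high values and the groups share libraries. The criterion was met in 18 of 50 groups, and in 16 of these the library was from batch 4.

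Aldoc stood apart in NSC 4 with 1003 RPKM (12.3 to 180 in the other NSC libraries), in GRP2/MP3 4 with 1189 (7.21 to 16) and in PFMP 4 with 2344 (10.7 to 71.3). Gja1 did so in NSC 4 with 353 RPKM (10.6 to 63.9), in GRP2/MP3 4 with 68.2 (2.87 to 11.4), in GRP3 4 with 34.8 (3.02 to 4.76) and in PFMP 4 with 130 (3.1 to 6.63). For Gfap the libraries were NSC 4 with 223 RPKM (0 to 8.97), GRP2/MP3 4 with 71.7 (0 to 0.986), GRP3 4 with 8.80 (0 to 0.825) and PFMP 4 with 268 (0.0084 to 1.32). Aldh1l1 was apart in GRP2/MP3 4 with 33.4 RPKM (0.596 to 2.31), in GRP3 4 with 6.56 (1.04 to 1.95) and in PFMP 4 with 45.6 (1.35 to 5.30). Gjb6 was apart in BNAP/GRP1 4 with 9.80 RPKM (0 to 1.27) and in GRP2/MP3 4 with 4.65 (0 to 0.607), and it was listed at 0 in GRP3 3 (5.22 to 6.10 in the others). Hopx was apart in GRP3 3 with 9.02 RPKM (3.14 to 4.08), and in no NSC library.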

How the results depend on the processing

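The number of the 10 genes called against NSC was 0 in BNAP/GRP1 and 1 in each other progenitor, and 1 gene was called in NSC against their mean. With the replicate block it became 3 in GRP3 and 3 in NSC against the mean, through Gja1 and Aqp4, and the block changed no other call of the 10 genes. With arrayWeights it became 1 in BNAP/GRP1, 3 in GRP3, 2 in NSC against the mean and 2 between progenitors. In batches 1 and 2 alone it became 4 in GRP3 (3.36% of all genes), 3 in GRP2/MP3 (4.37%), 2 in PFMP (3.58%), 1 in BNAP/GRP1 (3.75%) and 4 in NSC against the mean (5.57%). With batch 3 left out and the replicate block it became 1 in BNAP/GRP1 (1.59% of all genes) and 2 in NSC against the mean (3.42%). It fell to 0 in GRP2/MP3 and PFMP with quantile normalization, to 0 in GRP2/MP3, GRP3 and PFMP with only the compared populations, and to 0 in PFMP with pseudocount 0.1 and with no filter. Over the 20 fits without 1 library and the 4 without 1 batch, every count lay between 0 and 1. Without batch 1 Hopx lost its calls (NSC against the mean 2.19, limma adjusted p = 0.285), as it did without batch 2 (2.49, adjusted p = 0.201). Without batch 4 it lost them in GRP3 (adjusted p = 0.0501) and PFMP (0.0743). Beside NSC 1 and NSC 2, leaving out other single libraries also lost its calls in the fit without the block. In GRP2/MP3 this held for GRP2/MP3 1, 2 or 4 (limma adjusted p 0.0608 to 0.0961), and in GRP3 for GRP3 1, 2 or 4 (0.0695 to 0.103). In PFMP it held for any of PFMP 1 to 4 (0.0502 to 0.158), GRP2/MP3 1 or 2, or GRP3 1 or 2 (0.0503 to 0.0551). Without the named GRP2/MP3 or GRP3 libraries, the PFMP difference stayed at -2.96. There only the shared estimate of spread, the filter or the adjustment could change the adjusted p. The cause of the other losses was not tested.

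Over all alternatives, 1634 values of the 10 genes kept their direction and side of the threshold, 39 lost a call, 21 gained one and 41 changed sign, and the 41 were of values not called. With arrayWeights the sign changed for Glul in BNAP/GRP1 (0.78) and in NSC against the mean (-0.17), Slc1a2 in GRP3 (0.46), Aldoc in PFMP (0.16), and Gjb6 in PFMP (0.16) and NSC against the mean (-0.0088). In batches 1 and 2 alone it changed for Slc1a3 (0.094) and Glul (0.74) in BNAP/GRP1, Slc1a2 in GRP3 (0.22) and Glul in NSC against the mean (-0.11), and with quantile normalization for Gjb6 in PFMP (0.13). With 1 library or 1 batch left out, values ranged across 0 as follows. In BNAP/GRP1, Gjb6 ran from -1.23 to 0.14 and Glul from -1.25 to 0.48. In GRP2/MP3, Glul ran from -0.21 to 0.73. In GRP3, Slc1a3 ran from -2.61 to 0.0054, Slc1a2 from -1.71 to 1.02 and Gjb6 from -0.11 to 1.12. In PFMP, Slc1a3 ran from -2.19 to 0.16, Slc1a2 from -1.10 to 1.67, Aldoc from -2.10 to 0.71, Gjb6 from -0.87 to 0.52, Gfap from -2.85 to 0.45 and Aldh1l1 from -1.20 to 0.29. In NSC against the mean, Slc1a2 ran from -0.13 to 1.91, Gjb6 from -0.39 to 0.76 and Glul from -0.043 to 0.68. Direction also turned for Glul in BNAP/GRP1 without BNAP/GRP1 4 (0.20) and in GRP2/MP3 without GRP2/MP3 2 (-0.074), and without batch 2 for Slc1a2 (-0.055) and Gjb6 (0.33) in PFMP. The depth of BNAP/GRP1 4 limits its values of Hopx, Gjb6, Aldh1l1, Aqp4 and Glul, each of about 2.28 to 4.84 reads.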

Other observations

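In NSC against the mean of the progenitors, the markers of other cell types moved in both directions. OPC markers were lower for 8 of 8 genes (median -2.55), of which 0 were called by limma without the replicate block (5 with an unadjusted p under 0.05) and 3 with it, where 0.225% of all genes were called lower. Microglia markers were lower for 10 of 10 (median -1.83), pericyte markers for 6 of 6 (median -0.93) and erythrocyte markers for 5 of 5 (median -1.11), and 0 of these were called with or without the block, with 1, 0 and 0 at an unadjusted p under 0.05. Endothelial markers stood higher for 6 of 6 (median 1.31), with 0 called and 2 at an unadjusted p under 0.05. Of 8 neuroblast markers (median -0.96) Cd24a was called higher with the block alone, and of 6 transit amplifying cell markers (median -0.67) Mki67, a proliferation marker, lower with the block alone. Of 4 choroid plexus markers tested (median 0.88) Folr1 was called higher. Of 9 lung epithelium markers tested (median 0.05) 0 were called by limma and 0 had an unadjusted p under 0.05.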
